A study of Arabidopsis thaliana with 12 samples.

Results

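The transposable elements (TEs) described here are the 3839 annotated TEs of *Arabidopsis thaliana* numbered AT5TE32500 to AT5TE58000, of 31189 TEs counted in each library. TE numbers run in order along chromosome 5, and the window was set by number alone, to span the centromere. The other 2838 TEs of chromosome 5 served for comparison. RNA was measured in 12 libraries, 3 from each of 4 genotypes, and each library came from a single 14-day-old seedling, so that the p-values below measure the spread between seedlings. The genotypes were the *h1.1 h1.2 cdca7a cdca7b* quadruple mutant, *h1.1 h1.2* (T-DNA insertions in both major linker histone H1 genes), *cdca7a cdca7b* (CRISPR-Cas9 alleles of both Arabidopsis CDCA7 genes) and Col-0, the wild type and the background of all mutants.

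The names given to the libraries disagreed. Title and count table agreed on the genotype only for the quadruple mutant, and 9 of the 12 libraries carried different genotypes in each. Those titled *h1.1 h1.2* had tables named *cdca7a cdca7b*, libraries titled *cdca7a cdca7b* had tables named Col-0, and libraries titled Col-0 had tables named *h1.1 h1.2*. Sets are called by their titles here, no library was reassigned, and each pair of sets is given with both readings. By table names, the pair titled *h1.1 h1.2* against *cdca7a cdca7b* was therefore *cdca7a cdca7b* against Col-0. Counts on the targeted genes were too low for a test, with medians of 0 to 5. For *CDCA7a* (AT4G37110), the quadruple mutant had 0, 0 and 0 counts, the libraries titled *h1.1 h1.2* (tables *cdca7a cdca7b*) 0, 0 and 5, those titled *cdca7a cdca7b* (tables Col-0) 3, 2 and 8, and those titled Col-0 (tables *h1.1 h1.2*) 4, 2 and 10. *CDCA7b* (AT2G23530) had reads in 1 library titled *cdca7a cdca7b* (1 count) and 1 titled Col-0 (7 counts) only. *H1.1* (AT1G06760) and *H1.2* (AT2G30620) had up to 6 and 10 counts in the quadruple mutant, for which title and table agree. They had up to 21 and 16 in the libraries titled *h1.1 h1.2* (tables *cdca7a cdca7b*) and up to 10 and 15 in those titled Col-0 (tables *h1.1 h1.2*). In the libraries titled *cdca7a cdca7b* (tables Col-0) they had up to 0 and 2. *CDCA7a* and *CDCA7b* counts were thus lowest in the 2 sets whose tables carry *cdca7a cdca7b*. Those of the *H1* genes were lowest in a set that neither name gives as *h1.1 h1.2*. These counts are too low to decide between the namings, and whether the mutant alleles lower the transcripts was not tested.

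TEs around Arabidopsis centromeres lie in compact heterochromatin, where DNA methylation, H3K9 methylation and the histone variant H2A.W keep most of them silent. CDCA7 proteins act with chromatin remodelers of the DDM1 family (HELLS in mammals) to let the CG methylation machinery reach nucleosomal DNA, and linker histone H1 compacts the same chromatin. Silenced TEs give few or no reads. In whole seedlings, more RNA per cell and more cells that express an element cannot be told apart.

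Libraries held 450869 to 833911 counts on genes and 115994 to 208584 on TEs. The TEs took 0.368 to 0.543% of the reads in the TE tables, and the genes 1.56 to 2.38% of those in the gene tables. The strand option of the counting is not given in the sources used here. Whether the counted reads come from the sense strand was not tested. The 5 shoot markers were uneven in the libraries titled *h1.1 h1.2* and each was called in at least 1 pair, beside 4.51% of 4479 genes tested. *RBCS1A*, the Rubisco small subunit, had 2140, 35 and 338 counts in those libraries, against 42 to 89 in the other 9, and *PSBO1*, a photosystem II subunit, had 1335, 28 and 309, against 19 to 36. The 3 root markers (*PIN2*, *RHD6*, *COBL9*) and the 2 markers of other organs (*AG*, *VGD1*) had at most 7 counts in any library, with *AG* at 0 in all. The part of these differences in the results below was not tested, and calls between sets that ended without replicate 1 of that set are named below. The 26 pathway genes of CG methylation maintenance and heterochromatin (*MET1*, *DDM1*, *CMT2*, *ROS1* and others) were too low to test, with median counts of at most 5 and 17 medians at 0.

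Most of the window had no read in any library. Of its 3839 TEs, 3470 had 0 counts in all 12 libraries and 369 (9.61%) had at least 1 count. The share was 21.2% (602 TEs) on the rest of chromosome 5 and 13.6% over all TEs. Only uniquely mapped reads were counted, and the part of this in the shares was not tested. A summed count of 1 to 9 was all that 271 of the 369 TEs reached, while 46 were detected in all 12 libraries. The filter on low counts left 55 window TEs to test, among 753 of all TEs and 149 on the rest of chromosome 5, and 314 window TEs with counts could not be tested. The tested TEs are thus the few with enough reads.

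The number of window TEs with any read was highest in the libraries titled *h1.1 h1.2* (tables *cdca7a cdca7b*). They had 152, 140 and 144 such TEs, against 95, 94 and 100 in those titled *cdca7a cdca7b* (tables Col-0). The quadruple mutant had 118, 101 and 110, and the libraries titled Col-0 had 108, 122 and 96. The set titled *h1.1 h1.2* overlapped none of the other 3 sets. Its libraries had 119808 to 144555 TE counts, those of the quadruple mutant 115994 to 131362, those titled *cdca7a cdca7b* 163457 to 167997 and those titled Col-0 143772 to 208584. The part of depth was not tested. The set titled *h1.1 h1.2* stood 1.51-fold above the set titled *cdca7a cdca7b* and 1.34-fold above the set titled Col-0. Each had p = 0.1 in an exact two-sided permutation test, the smallest p that 3 against 3 libraries allow. TEs outside the window were detected 1.19-fold more often in the first pair (p = 0.1, exact permutation test) and 1.04-fold in the second, where the sets overlapped (p = 0.6, exact permutation test).

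Window TEs made up 8.01, 8.28 and 7.89% of all detected TEs in the libraries titled *h1.1 h1.2*, against 6.12, 6.70 and 6.64% in those titled *cdca7a cdca7b*. The quadruple mutant had 7.40, 7.05 and 6.93%, and the libraries titled Col-0 had 6.49, 6.55 and 6.03%. The 3 shares of the set titled *h1.1 h1.2* lay above every other library, and those of the quadruple mutant lay above every library titled *cdca7a cdca7b* or Col-0. Each of these differences had p = 0.1, the smallest possible, in an exact two-sided permutation test. This measure was chosen after the values had been seen. TEs with reads in 1 set only numbered 86 for the set titled *h1.1 h1.2*, 41 for the quadruple mutant, 28 for the set titled *cdca7a cdca7b* and 37 for the set titled Col-0. These were 23.3, 11.1, 7.59 and 10.03% of the 369 window TEs with counts, beside 17.4, 7.77, 7.04 and 11.3% of the 4245 TEs with counts in the genome.

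5 TEs had reads in all 3 libraries titled *h1.1 h1.2* and in no other library, against 0 such TEs for each of the other 3 sets. AT5TE50965 was the most abundant of them, with 36, 57 and 10 counts. It missed the count filter and had no test, and it was the untested TE with the highest total, 103 counts. AT5TE44200 had 7, 4 and 8 counts, and the other 3 TEs (AT5TE35960, AT5TE36610 and AT5TE40525) had 1 to 3 counts in each library. Among the 4245 TEs with counts in the genome, 34 had this pattern, beside the 5 among 369 in the window. Over all TEs, the same pattern was found for 0 TEs in the quadruple mutant. It was found for 3 in the set titled *cdca7a cdca7b* and 1 in the set titled Col-0.

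**Figure D1:**
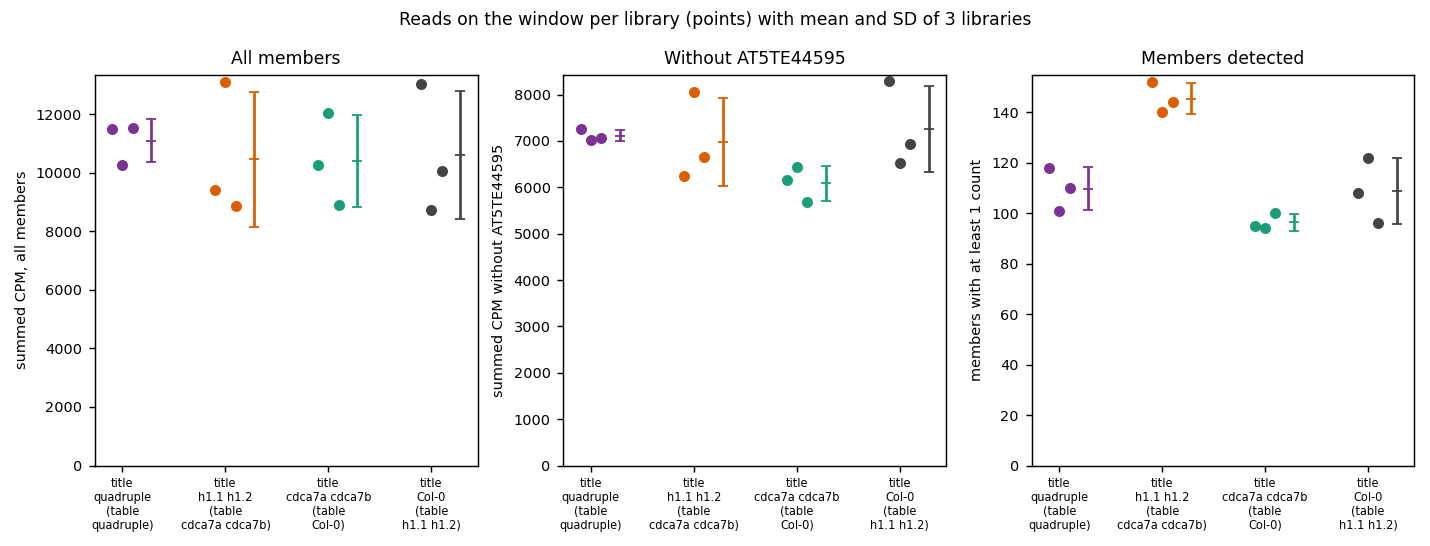
Summed CPM (counts per 1e6 TMM-scaled gene counts) of all window TEs, summed CPM without the TE with the most reads, and number of window TEs with at least 1 count, in each library (points) with mean and SD of the 3 libraries of a set. Summed CPM overlaps between all sets, while the 3 libraries titled *h1.1 h1.2* have 140 to 152 detected TEs and the other 9 have 94 to 122.

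The summed level of the window did not separate the sets. Its CPM (counts scaled to 1e6 gene counts per library after TMM, a trimmed mean of the ratios between libraries) ran from 10243 to 11536 in the quadruple mutant, 8857 to 13101 in the set titled *h1.1 h1.2*, 8904 to 12048 in the set titled *cdca7a cdca7b* and 8732 to 13012 in the set titled Col-0. All 6 pairs of sets overlapped, with p of 0.6 to 1 in exact two-sided permutation tests. A single TE, AT5TE44595, held 24.8 to 46.6% of the window's counts. It had 1985, 1471 and 2500 counts in the quadruple mutant, 1877, 2737 and 1449 in the libraries titled *h1.1 h1.2*, 2662, 2837 and 2351 in those titled *cdca7a cdca7b* and 3074, 2114 and 1957 in those titled Col-0. Its log2 fold changes lay between -0.31 and 0.37 over the 6 pairs, and none was called.

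Without AT5TE44595, the window summed to 5687 to 6430 CPM in the set titled *cdca7a cdca7b*, below the 6519 to 8302 CPM of the set titled Col-0 (ratio 0.839, p = 0.1, exact permutation test, no overlap). The quadruple mutant, at 7025 to 7256 CPM, also lay above the set titled *cdca7a cdca7b* (ratio 1.17, p = 0.1, exact permutation test). As a share of all TE counts, the whole window took 4.04 to 4.91% in the quadruple mutant, 4.32 to 4.91% in the set titled *h1.1 h1.2*, 3.72 to 4.03% in the set titled *cdca7a cdca7b* and 4.07 to 4.40% in the set titled Col-0. The set titled *cdca7a cdca7b* was the lowest of the 4 and overlapped none of the others (p = 0.1 in each of the 3 exact permutation tests). The share of the rest of chromosome 5, 12.6 to 14.5%, overlapped between all sets (p of 0.6 to 1, exact permutation test).

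None of the most abundant TEs of the window was called, with 1 exception. After AT5TE44595 and apart from that exception, AT5TE46165, these were AT5TE34670, AT5TE35015, AT5TE53340 and AT5TE34715. AT5TE34670 averaged 1435 ± 187 CPM in the quadruple mutant, 1165 ± 123 in the set titled *h1.1 h1.2*, 1181 ± 55.1 in the set titled *cdca7a cdca7b* and 1192 ± 41.0 in the set titled Col-0 (SD, n = 3 each). AT5TE34715 averaged 383 ± 42.6, 418 ± 79.5, 432 ± 37.1 and 437 ± 80.1 CPM in the same 4 sets. None of these 4 TEs was called in any pair, and their log2 fold changes ran from -0.42 to 0.41.

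Of the 55 tested window TEs, 11 differed between at least 1 pair of sets. A TE was called where edgeR's quasi-likelihood test, fitted to all 12 libraries, gave an adjusted p under 0.05 (Benjamini-Hochberg, over 753 TEs) and the log2 fold change was 1 or more in either direction. In the libraries titled *h1.1 h1.2* against those titled *cdca7a cdca7b* (by table names, *cdca7a cdca7b* against Col-0), 9 of 55 window TEs were higher and 0 lower, against backgrounds of 4.78% and 0.531% of all TEs tested. 12 window TEs were higher and 3 lower at an unadjusted p under 0.05. DESeq2, here and below, was run without the filter on low counts and tested 367 window TEs and 4239 in all. It called 11 higher and 0 lower in the window, and 36 higher and 4 lower over all TEs. On the rest of chromosome 5, 1 of 149 TEs was higher and 0 lower. AT5TE40510, AT5TE40530 and AT5TE43705 were among the 9 window TEs, and also among those called higher over the set titled Col-0. They passed the filter on low counts only through the set titled *h1.1 h1.2*.

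In the libraries titled *cdca7a cdca7b* against those titled Col-0 (Col-0 against *h1.1 h1.2* by table names, with the wild type then on top of the fold change), 0 window TEs were called higher and 4 lower. The backgrounds were 0% and 1.86%, and the rest of chromosome 5 had 1 TE lower. 0 window TEs were higher and 12 lower at an unadjusted p under 0.05. DESeq2 called 0 higher and 4 lower, and 0 and 14 over all TEs. In the libraries titled *h1.1 h1.2* against those titled Col-0 (*cdca7a cdca7b* against *h1.1 h1.2*), 4 were higher and 2 lower, against backgrounds of 3.19% and 1.33%.

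In the quadruple mutant against the libraries titled *cdca7a cdca7b* (quadruple mutant against Col-0), 5 window TEs were higher and 0 lower, against backgrounds of 2.26% and 0.133%. 13 were higher and 1 lower at an unadjusted p under 0.05. DESeq2 called 6 higher and 0 lower, and 18 and 1 over all TEs. In the quadruple mutant against the libraries titled *h1.1 h1.2* (against *cdca7a cdca7b* by table names), 1 was higher and 3 lower, against 0.664% and 2.52%. In the quadruple mutant against the libraries titled Col-0 (against *h1.1 h1.2* by table names), edgeR called 0 window TEs in either direction, against 0.133% higher and 0% lower. There, 5 were higher and 3 lower at an unadjusted p under 0.05. DESeq2 called 1 higher and 0 lower, and 4 and 0 over all TEs. The 6 pairs share their libraries, so their counts are not independent.

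The median log2 fold change of the 55 tested window TEs was 0.10 in the pair titled *h1.1 h1.2* against *cdca7a cdca7b*, beside -0.17 over all TEs tested. It was -0.25 beside 0.02 for *cdca7a cdca7b* against Col-0, and 0.17 beside -0.03 for the quadruple mutant against *cdca7a cdca7b*, all by title. The other 3 window medians, -0.15, 0.01 and 0.13, lay within 0.05 of those over all TEs. Scaling by TE counts in place of gene counts moved the median of all TEs from -0.17 to 0.01 for the set titled *h1.1 h1.2* over that titled *cdca7a cdca7b*, from -0.15 to 0.01 for the same set over that titled Col-0, and from 0.11 to 0.00 for the quadruple mutant over it. The window medians of these pairs became 0.30, 0.08 and -0.01 under that scaling, so that the sign turned in the last 2.

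**Figure D2:**
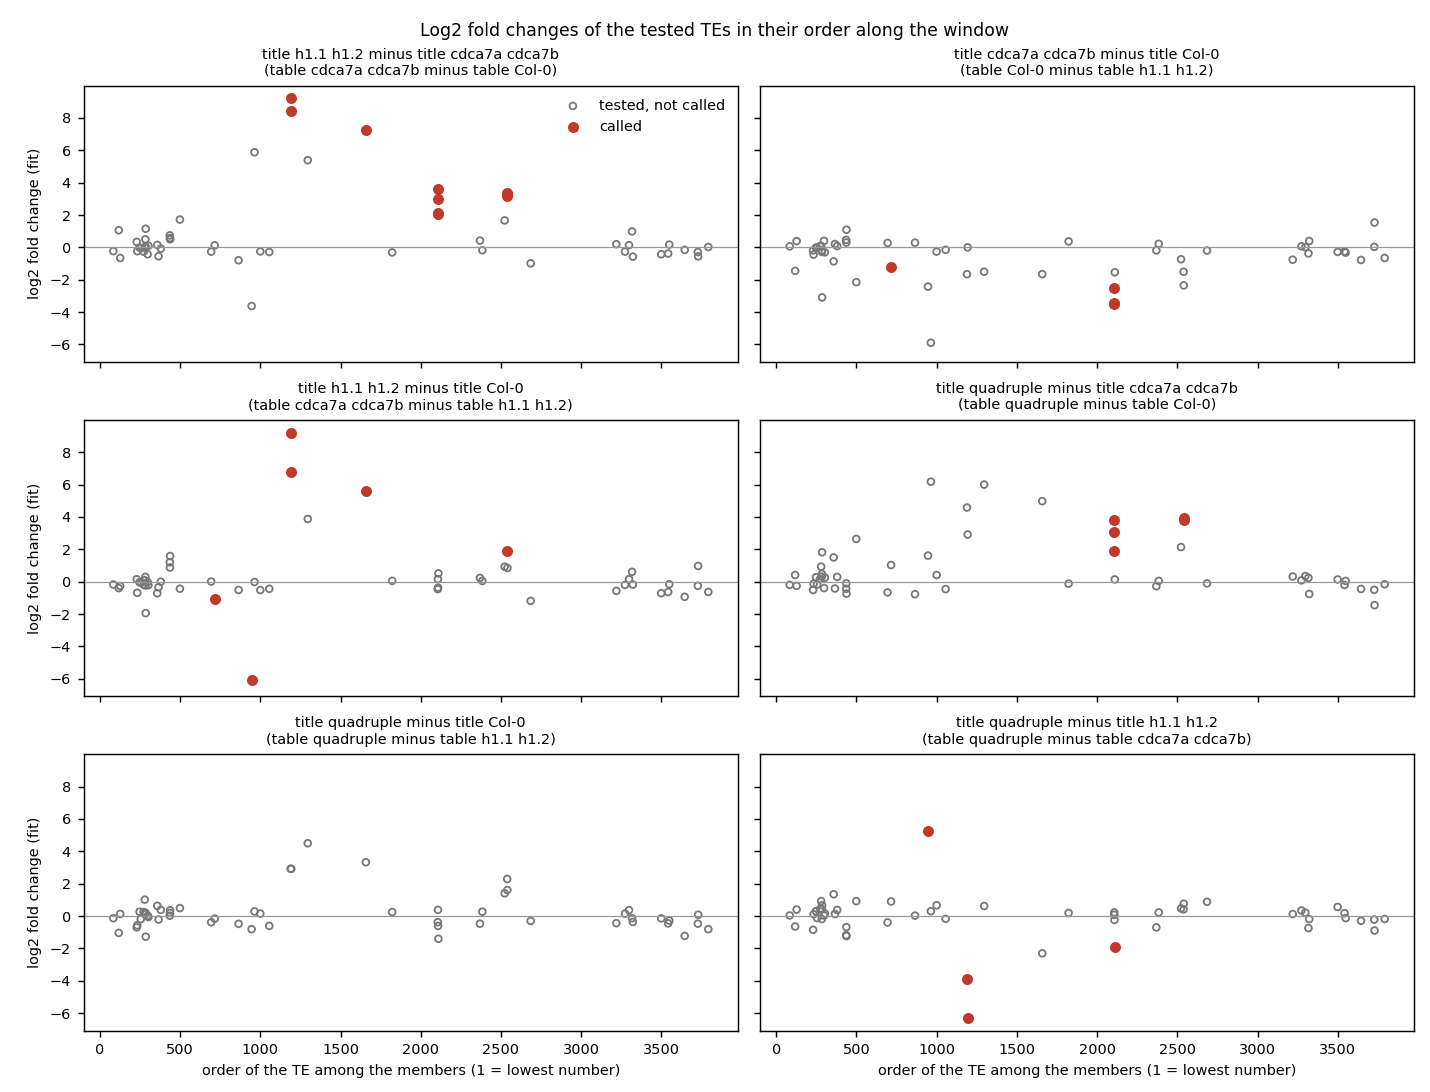
Fitted log2 fold change (y) of the 55 tested window TEs against their order in the window by TE number (x), 1 panel per pair of sets with both readings, called TEs filled. The called TEs lie between the orders of AT5TE37825 and AT5TE48720, with 9 higher and 0 lower in the top left panel and 0 lower or higher in the panel of the quadruple mutant against the set titled Col-0.

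The 11 window TEs called in a pair were among 55 such TEs in the genome, and 44 tested window TEs were called in none. All 11 carried numbers between 37500 and 49999. In successive bins of 2500 numbers from there, 2 of 7, 2 of 3, 1 of 2, 4 of 4 and 2 of 6 tested TEs were called. Below this range 21 TEs were tested and above it 12, and none of them was called. The bin from 50000 to 52499 held 403 TEs, 26 of them with counts and none tested.

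**Figure D3:**
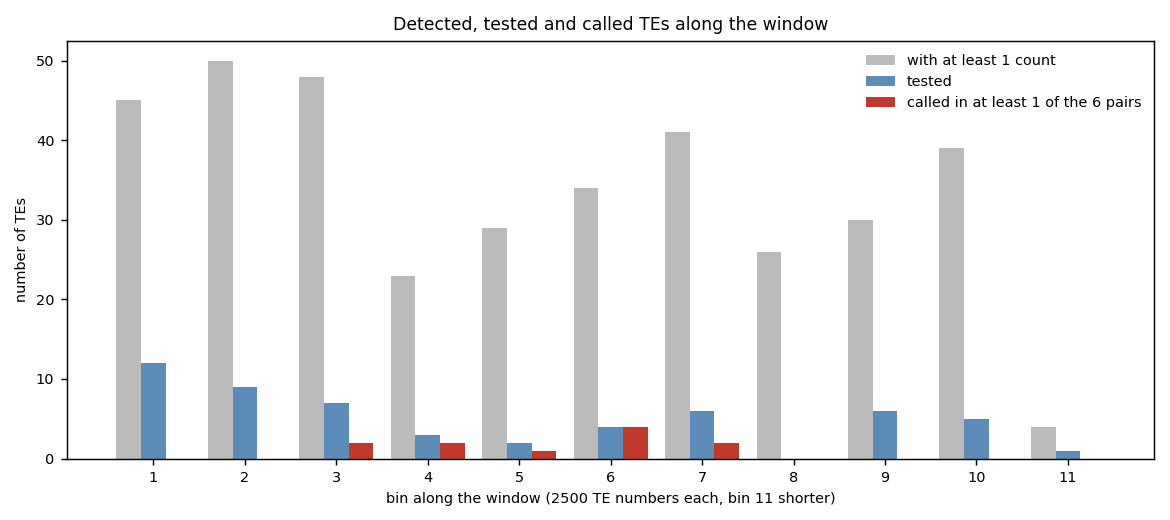
Number of window TEs (y) with at least 1 count, tested, and called in at least 1 of the 6 pairs of sets, in bins of 2500 TE numbers along the window (x, the last bin is shorter). The 11 called TEs fall in the third to the seventh bin, and the sixth has all 4 of its tested TEs called.

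In the sixth bin, the first 3 of the 4 tested TEs moved together. The 4 were AT5TE46155, AT5TE46160, AT5TE46165 and AT5TE46175. AT5TE46170, between them, had 0 counts in all libraries, as did the 5 numbers listed before AT5TE46155 and the 4 after AT5TE46175. The first 3 were low in the libraries titled *cdca7a cdca7b* (tables Col-0) and close to each other in the other 3 sets. No family name or position of these TEs was used here, and reads that overlap neighbouring TEs could link their counts.

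AT5TE46155 had 128, 111 and 167 counts in the quadruple mutant, 82, 188 and 188 in the libraries titled *h1.1 h1.2*, 19, 26 and 12 in those titled *cdca7a cdca7b* and 310, 279 and 184 in those titled Col-0. The set titled *cdca7a cdca7b* lay below all 9 other libraries. In CPM it averaged 32.4 ± 17.7, against 353 ± 106 in the set titled Col-0 (SD, n = 3 each), a log2 fold change of -3.48 ± 0.41 (SE, edgeR adjusted p = 3.86e-05). The quadruple mutant, at 271 ± 27.9 CPM, was higher than the set titled *cdca7a cdca7b* (log2 fold change 3.10 ± 0.41, edgeR adjusted p = 0.000173), and so was the set titled *h1.1 h1.2*, at 257 ± 107 CPM (3.02 ± 0.41, adjusted p = 0.000133). The 3 calls held in each of the 12 fits that left out 1 library.

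AT5TE46165 was the most abundant of the 4. It had 193, 162 and 240 counts in the quadruple mutant, 229, 252 and 369 in the libraries titled *h1.1 h1.2*, 90, 57 and 54 in those titled *cdca7a cdca7b* and 537, 435 and 344 in those titled Col-0. Here too, the set titled *cdca7a cdca7b* did not overlap any other set. Its mean of 109 ± 32.7 CPM stood against 608 ± 191 in the set titled Col-0 (log2 fold change -2.49 ± 0.28 SE, edgeR adjusted p = 3.25e-05). The set titled *h1.1 h1.2* was higher than it by a log2 fold change of 2.12 ± 0.28 (edgeR adjusted p = 0.000125) and the quadruple mutant by 1.88 ± 0.28 (edgeR adjusted p = 0.000686), and no left-out library ended these calls.

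AT5TE46160 was also lowest in the set titled *cdca7a cdca7b*, at lower counts. It had 31, 15 and 28 counts in the quadruple mutant, 20, 38 and 16 in the libraries titled *h1.1 h1.2*, 2, 4 and 0 in those titled *cdca7a cdca7b* and 38, 28 and 17 in those titled Col-0. It was higher in the quadruple mutant (log2 fold change 3.83, edgeR adjusted p = 0.00846) and in the set titled *h1.1 h1.2* (3.61, edgeR adjusted p = 0.00547) than in the set titled *cdca7a cdca7b*. The set titled *cdca7a cdca7b* was lower than that titled Col-0 (-3.45, edgeR adjusted p = 0.018), but this call was lost without replicate 1 or 3 titled *cdca7a cdca7b* (adjusted p = 0.0881 and 0.0888), without replicate 1 titled Col-0 (0.0882) and with only the 6 libraries compared in the fit (0.0843). The 3 log2 fold changes became 4.89, 4.64 and -4.52 without replicate 2 titled *cdca7a cdca7b* and 3.17, 2.92 and -2.80 without its replicate 3, and that of the set titled *h1.1 h1.2* over *cdca7a cdca7b* became 2.94 without replicate 2 titled *h1.1 h1.2*.

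AT5TE46175 had another order. It had 10, 13 and 18 counts in the quadruple mutant, 57, 61 and 68 in the libraries titled *h1.1 h1.2*, 18, 15 and 13 in those titled *cdca7a cdca7b* and 75, 58 and 27 in those titled Col-0. The quadruple mutant and the set titled *cdca7a cdca7b* had the lowest means and were not called different (27.3 ± 5.53 against 25.1 ± 6.39 CPM, log2 fold change 0.14 ± 0.43 SE, edgeR adjusted p = 0.953). AT5TE46175 was higher in the set titled *h1.1 h1.2* than in that titled *cdca7a cdca7b* (2.06, edgeR adjusted p = 0.00352). The quadruple mutant was lower than the set titled *h1.1 h1.2* (-1.92, edgeR adjusted p = 0.01), a call lost without replicate 2 of that set (adjusted p = 0.0558) or replicate 1 or 2 of the quadruple mutant (0.0814 and 0.0576).

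3 TEs had most of their reads in the libraries titled *h1.1 h1.2* (tables *cdca7a cdca7b*). They passed the filter on low counts only through this set, the one in which they were high. Their folds and adjusted p-values against the other sets carry that selection. AT5TE40530 had 19, 109 and 84 counts in the libraries titled *h1.1 h1.2*. The quadruple mutant had 0, 0 and 2, while all 6 libraries titled *cdca7a cdca7b* or Col-0 were at 0. It averaged 120 ± 84.7 CPM in the set titled *h1.1 h1.2*, at least 75.5-fold higher than in the set titled *cdca7a cdca7b* and at least 89.7-fold higher than in the set titled Col-0, with 3 counts over the set in place of 0. Both calls held without any 1 library (edgeR adjusted p = 0.000543 and 0.00043), although replicate 2 titled *h1.1 h1.2* held 109 of the 212 counts of that set. The quadruple mutant was lower than the set titled *h1.1 h1.2* (edgeR adjusted p = 0.00308), a count ratio of 87.9 in favour of *h1.1 h1.2* (95% counting interval 24.0 to 731), but DESeq2 did not call it (adjusted p = 0.37).

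AT5TE40510, 4 numbered TEs before it, had 29, 45 and 52 counts in the libraries titled *h1.1 h1.2*, and the quadruple mutant had 0, 3 and 4. It had 0 counts in the set titled *cdca7a cdca7b* and 1 count in 1 of the 3 libraries titled Col-0. It was at least 44.2-fold higher in the set titled *h1.1 h1.2* than in that titled *cdca7a cdca7b* (edgeR adjusted p = 0.000299), and its count ratio to the set titled Col-0 was 157 (95% counting interval 27.7 to 6265, edgeR adjusted p = 0.000403). The quadruple mutant was lower than the set titled *h1.1 h1.2* (log2 fold change -3.86, edgeR adjusted p = 0.00954), a call lost without replicate 2 of either set (adjusted p = 0.0558 without that titled *h1.1 h1.2*, 0.0514 without that of the quadruple mutant). The 3 TEs numbered between them, AT5TE40515, AT5TE40520 and AT5TE40525, had 1, 5 and 6 counts summed over the set titled *h1.1 h1.2* and 0 in every other library.

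AT5TE43705 had 21, 16 and 19 counts in the libraries titled *h1.1 h1.2*, against 5, 3 and 1 in those of the quadruple mutant, with 0 in the set titled *cdca7a cdca7b* and 1 in the set titled Col-0. AT5TE43705 was at least 19.7-fold higher in the set titled *h1.1 h1.2* than in that titled *cdca7a cdca7b* (edgeR adjusted p = 0.00199), and its count ratio to that titled Col-0 was 70.0 (95% counting interval 12.1 to 2812, edgeR adjusted p = 0.00274). The quadruple mutant, at 6.33 ± 4.43 CPM against 31.3 ± 3.70 CPM, was not called lower (log2 fold change -2.30 ± 0.79 SE, edgeR adjusted p = 0.201). AT5TE40530, AT5TE40510 and AT5TE43705 each had their libraries titled *h1.1 h1.2* above all 9 others. Of those libraries, replicate 1, in which the shoot markers were highest, had the lowest counts of AT5TE40530 and AT5TE40510. It had the highest count of AT5TE43705. Replicate 3 also had the shoot markers above the 9 other libraries, and the part of these differences in the counts was not tested. Both calls of AT5TE43705 held without each library in turn, replicate 1 titled *h1.1 h1.2* included. So did those of AT5TE40510 against the sets titled *cdca7a cdca7b* and Col-0.

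AT5TE48715 and AT5TE48720, which are neighbours by number, had their highest means in the quadruple mutant. AT5TE48715 had 112, 81 and 59 counts there, 51, 76 and 107 in the libraries titled *h1.1 h1.2*, 12, 0 and 12 in those titled *cdca7a cdca7b* and 20, 27 and 30 in those titled Col-0. The quadruple mutant (174 ± 66.6 CPM) and the set titled *h1.1 h1.2* (130 ± 39.1 CPM) overlapped each other and lay above both remaining sets (11.6 ± 10.1 and 35.5 ± 10.6 CPM). Against the set titled *cdca7a cdca7b*, the quadruple mutant was higher by a log2 fold change of 3.80 ± 0.58 (SE, edgeR adjusted p = 0.000739) and the set titled *h1.1 h1.2* by 3.38 ± 0.58 (edgeR adjusted p = 0.00109), and both calls held without any 1 library.

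AT5TE48715 was also higher in the set titled *h1.1 h1.2* than in that titled Col-0 (log2 fold change 1.87 ± 0.51 SE, edgeR adjusted p = 0.0471). This call was lost in 8 of the 12 fits that left out a library. Adjusted p was 0.135, 0.168 and 0.0626 without replicates 1, 2 and 3 titled Col-0, 0.133 and 0.118 without replicates 2 and 3 titled *h1.1 h1.2*, 0.069 and 0.0714 without replicates 1 and 2 of the quadruple mutant, and 0.0516 without replicate 1 titled *cdca7a cdca7b*. The quadruple mutant, with a log2 fold change of 2.29 ± 0.52 over the set titled Col-0, missed the threshold (edgeR adjusted p = 0.0786).

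AT5TE48720 had 30, 6 and 16 counts in the quadruple mutant, 12, 11 and 14 in the libraries titled *h1.1 h1.2*, 1, 0 and 3 in those titled *cdca7a cdca7b* and 9, 9 and 7 in those titled Col-0. It was higher than in the set titled *cdca7a cdca7b* in the quadruple mutant (log2 fold change 3.96, edgeR adjusted p = 0.00954) and in the set titled *h1.1 h1.2* (3.20, edgeR adjusted p = 0.0276). AT5TE48720 passed the filter on low counts only through libraries of these 2 higher sets, so both calls carry that selection. The first call was lost without replicate 1 of the quadruple mutant (adjusted p = 0.0945) and without replicate 1 or 2 titled *cdca7a cdca7b* (0.0613 and 0.0651). With only the libraries compared in the fit, the TE missed the filter and the first pair had no test. The second call was lost without any 1 of the 3 libraries titled *h1.1 h1.2* (adjusted p = 0.0603, 0.0603 and 0.0635) and without replicate 1 or 2 titled *cdca7a cdca7b* (0.121 and 0.116). Without replicate 3 titled *cdca7a cdca7b*, the 2 log2 fold changes became 5.05 and 4.25, and without replicate 1 of the quadruple mutant the first became 3.21.

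2 called TEs were low in the libraries titled *h1.1 h1.2*. AT5TE39170 had 1, 0 and 0 counts there, 14, 16 and 12 in the quadruple mutant, 13, 4 and 0 in the libraries titled *cdca7a cdca7b* and 53, 44 and 15 in those titled Col-0. The set titled *h1.1 h1.2* was lower than that titled Col-0, with a count ratio of 89.7 in favour of Col-0 (95% counting interval 15.8 to 3573, edgeR adjusted p = 0.00274). The quadruple mutant was higher than the set titled *h1.1 h1.2* with a count ratio of 50.6 (8.60 to 2046, edgeR adjusted p = 0.0174), a call lost without replicate 2 or 3 titled *h1.1 h1.2* (adjusted p = 0.0748 and 0.068) or replicate 2 of the quadruple mutant (0.0576).

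AT5TE37825 had 134, 140 and 148 counts in the quadruple mutant, 69, 96 and 108 in the libraries titled *h1.1 h1.2*, 121, 72 and 66 in those titled *cdca7a cdca7b* and 212, 330 and 178 in those titled Col-0. The quadruple mutant averaged 285 ± 20.8 CPM, against 318 ± 31.9 CPM in the set titled Col-0, and was not called (log2 fold change -0.16 ± 0.27 SE, edgeR adjusted p = 0.985). The set titled *h1.1 h1.2*, at 153 ± 31.7 CPM, was lower than that titled Col-0 (-1.06, edgeR adjusted p = 0.0284), and so was the set titled *cdca7a cdca7b*, at 140 ± 48.2 CPM (-1.19, edgeR adjusted p = 0.0263). Both changes lay near the fold minimum, and neither call was firm.

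For AT5TE37825 in the set titled *cdca7a cdca7b*, 8 of the 12 fits lost the call. Adjusted p was 0.12 and 0.177 without replicates 2 and 3 of that set, 0.0882, 0.134 and 0.0609 without replicates 1, 2 and 3 titled Col-0, and 0.0666, 0.0603 and 0.0504 without replicates 1, 2 and 3 of the quadruple mutant. It was 0.111 with only the 6 libraries compared. In the set titled *h1.1 h1.2*, 4 fits lost it, with adjusted p of 0.188 and 0.0528 without replicates 1 and 3 of that set and 0.0563 and 0.0818 without replicates 1 and 2 titled Col-0. Adjusted p was 0.0506 with no filter on low counts, and with TE counts as library sizes the log2 fold change was -0.90, under the minimum.

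**Figure D4:**
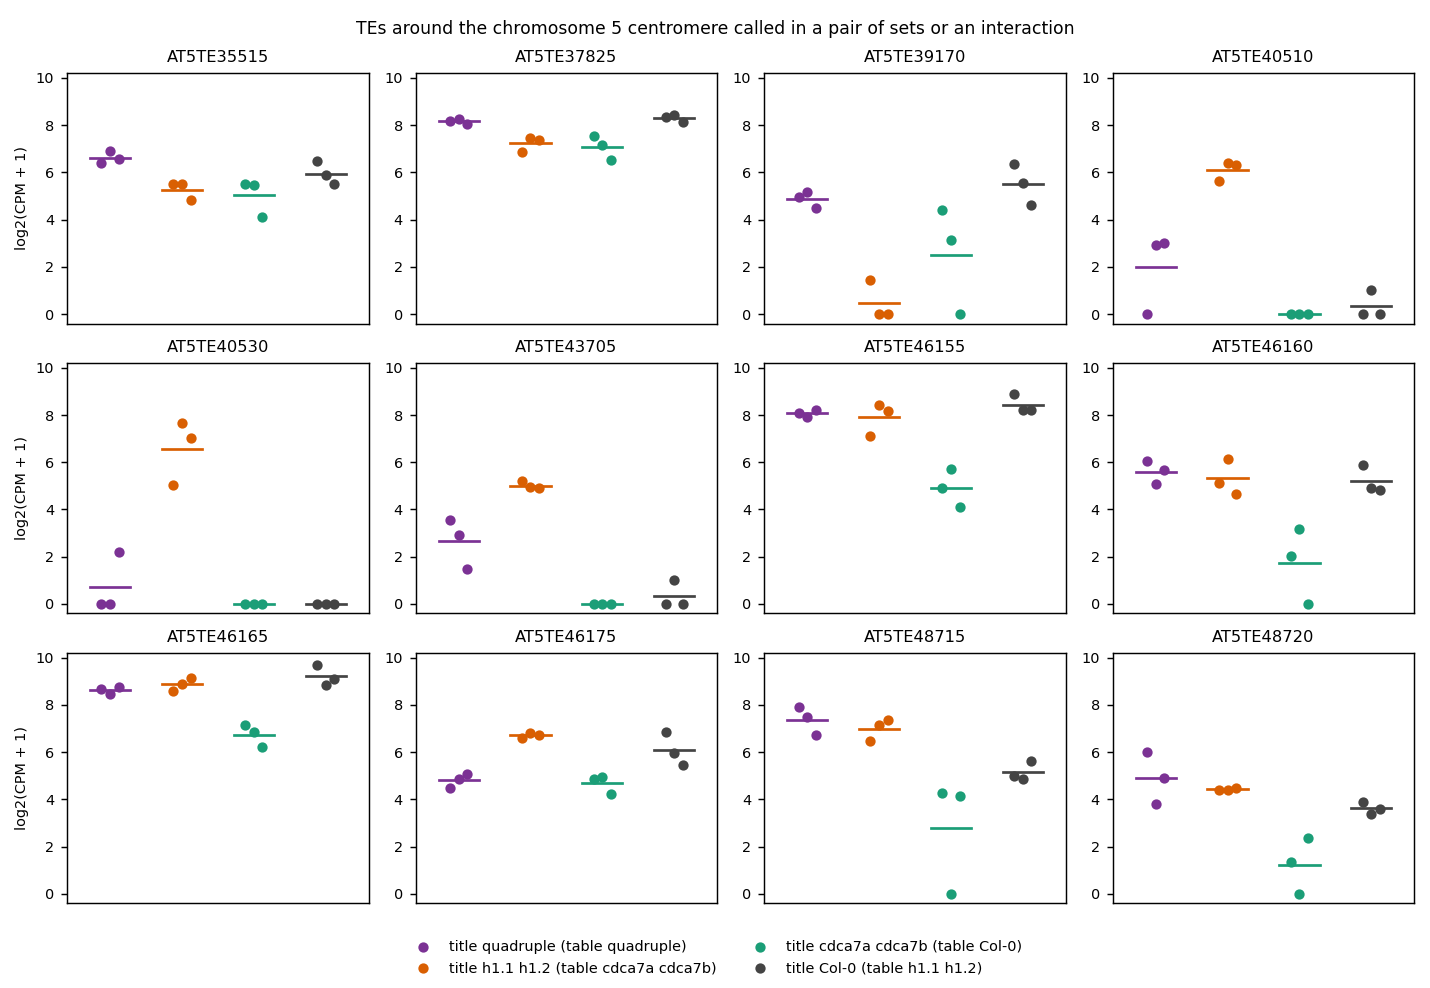
Level of each of the 12 window TEs called in a pair of sets or an interaction, as log2(CPM + 1) in each library (points, 3 per set), with the mean of the set as a line. The set titled *h1.1 h1.2* stands above all other libraries for AT5TE40510, AT5TE40530 and AT5TE43705, and the set titled *cdca7a cdca7b* below all others for AT5TE46155, AT5TE46160 and AT5TE46165.

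Whether the difference made by loss of CDCA7 itself differed between plants without and with H1 was tested as an interaction, the quadruple mutant over *h1.1 h1.2* less *cdca7a cdca7b* over Col-0. Read by titles, 6 window TEs had a higher and 0 a lower interaction term, against backgrounds of 2.66% and 0.664%. DESeq2 called 5 higher and 0 lower, and 22 and 5 over all TEs. At an unadjusted p under 0.05, 11 window TEs were higher and 2 lower in edgeR. Read by table names, 0 were higher and 3 lower, against backgrounds of 0% and 0.797%. DESeq2 again called 0 and 3, and 0 and 5 over all TEs. At an unadjusted p under 0.05, 0 window TEs were higher and 5 lower in edgeR.

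The direction of the term turned with the naming. For AT5TE46155 it was 3.56 ± 0.54 by titles (SE, edgeR adjusted p = 0.00077) and -3.40 ± 0.54 by table names (edgeR adjusted p = 0.00165). For AT5TE46165 it was 2.25 ± 0.38 by titles (edgeR adjusted p = 0.00229) and -2.73 ± 0.39 by table names (edgeR adjusted p = 0.000547). By titles, *cdca7a cdca7b* fell below Col-0 for both TEs while no difference of the quadruple mutant from *h1.1 h1.2* was called. By table names, *cdca7a cdca7b* rose above Col-0 for both and no rise of the quadruple mutant over *h1.1 h1.2* was called.

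Some reads of the window may belong to annotated genes as well. Of 83 window TEs with at least 20 counts, 3 had the same count as 1 gene in each of the 12 libraries, a match looked for after the values had been seen. They were AT5TE36230 with the pseudogene AT5G27925 (chromosome 5, 9949686 to 9954107), AT5TE45060 with the pseudogene AT5G33434 (12745751 to 12750205), and AT5TE46635 with *MUG8* (AT5G34853, 13103678 to 13107090), annotated as a pseudogene of the MUSTANG family of genes derived from transposons. Gene positions are those of RefSeq on TAIR10.1, and they rise in the order of the TE numbers. None of the 3 TEs was tested, with totals of 28, 45 and 26 counts.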

How the data were processed

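RNA-seq libraries were made from 500 ng of RNA per 14-day-old seedling with a kit for stranded mRNA. The authors deposited raw counts per gene and per TE for each library, without normalization. Per the labels and methods, reads were trimmed with Trim Galore 0.6.7, left reads were aligned to TAIR10 with STAR 2.7.11a, uniquely mapped reads with few mismatches were kept, and HTSeq 0.13.5 counted them. The strand option and the TE annotation release are not given in the sources used here. HTSeq's summary lines (99.4 to 99.6% of the reads in the TE tables were on no TE) were left out of library sizes and tests.

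TEs were fitted over the whole TE table with edgeR 4.0.16 in R 4.3.3 (glmQLFit and glmQLFTest, group means, filterByExpr), with gene-table library sizes and TMM factors. CPM used the same scaling. Standard errors came from the fold change and its F statistic. Folds against sets at 0 used a floor of 3 counts, and count ratios have exact 95% binomial intervals, which cover counting error only. Alternatives were DESeq2 1.42.0 without the filter on low counts, its size factors, no filter, and at least 10 summed counts. Others were TE library sizes, a replicate block, a fit of only the libraries compared, and each library left out in turn. Named TEs were the 6 with the highest mean CPM, and called TEs whose 2 sets did not overlap, up to 5 (10 for *cdca7a cdca7b* against Col-0 under either naming) per pair and direction, and 3 per interaction. The window, the lists and the rules were chosen with earlier results of these data known. Python 3.11.15, pandas 2.3.3, scipy 1.17.1 and matplotlib 3.10.9 were used. DNA methylation was not analysed here.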

Additional observations from a re-analysis of the deposited data

Results flagged for a closer look

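The interaction test of edgeR called 6 window TEs by titles, all higher, and 3 by table names, all lower. The 2 namings exclude each other, so these counts do not add up. Over all TEs tested, 2.66% were called higher by titles and 0.797% lower by table names. By titles, the log2 interaction term was 7.67 for AT5TE39170, 3.67 for AT5TE46160, 3.56 for AT5TE46155, 2.25 for AT5TE46165, 2.21 for AT5TE35515 and 2.09 for AT5TE37825. By table names it was -3.46 for AT5TE46175, -3.40 for AT5TE46155 and -2.73 for AT5TE46165.

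AT5TE35515 was called in no pair of sets. It had 39, 54 and 52 counts in the quadruple mutant, 26, 24 and 18 in the libraries titled *h1.1 h1.2*, 29, 22 and 12 in those titled *cdca7a cdca7b* and 57, 55 and 28 in those titled Col-0. Its edgeR adjusted p, 0.0486 with all libraries, was above 0.05 in 10 of the 12 fits that left out 1 library. It was 0.0699, 0.129 and 0.0856 without replicates 1, 2 and 3 of the quadruple mutant, 0.0827, 0.0661 and 0.115 without replicates 1, 2 and 3 titled *h1.1 h1.2*, 0.0589 and 0.105 without replicates 2 and 3 titled *cdca7a cdca7b*, and 0.13 and 0.0752 without replicates 1 and 2 titled Col-0. DESeq2 (adjusted p = 0.0652) and edgeR with DESeq2 size factors (0.0551) also lost this call. So did edgeR with no filter on low counts (0.0553) and with at least 10 summed counts (0.0572). The call of AT5TE46160 (edgeR adjusted p = 0.0465) was lost in 9 of those 12 fits. It was 0.121, 0.0546 and 0.0856 without replicates 1, 2 and 3 of the quadruple mutant, 0.0912 and 0.0837 without replicates 1 and 3 titled *h1.1 h1.2*, 0.0923 and 0.104 without replicates 1 and 3 titled *cdca7a cdca7b*, and 0.118 and 0.0567 without replicates 1 and 2 titled Col-0. Its term became 4.77 and 3.05 without replicates 2 and 3 titled *cdca7a cdca7b* and 4.30 without replicate 2 titled *h1.1 h1.2*. The other 7 terms kept their calls in all 12 fits. The size of the term of AT5TE39170 depends on the prior count, since the 3 libraries titled *h1.1 h1.2* held 1 count in all. It became 9.56 without replicate 1 titled *h1.1 h1.2*, and 9.05 and 7.07 without replicates 1 and 3 titled *cdca7a cdca7b*.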

How the results depend on the processing

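The filter on low counts limited the tests to 55 of the 369 window TEs with counts. Pairs in this section go by title, with the readings by table name given above. With only the libraries compared in the fit, 2 window TEs were called lower in *cdca7a cdca7b* against Col-0 (4 with all libraries), and 8 over all TEs (14). Without the filter on low counts, 369 window TEs and 4245 in all were tested. Higher calls were then 14 for *h1.1 h1.2* against *cdca7a cdca7b* (9 with it), 9 for *h1.1 h1.2* against Col-0 (4) and 9 for the quadruple mutant against *cdca7a cdca7b* (5). They were 4 for the quadruple mutant against Col-0 (0) and 2 for it against *h1.1 h1.2* (1). Over all TEs, the higher calls of these pairs, in this order, rose from 36 to 63, 24 to 53, 17 to 38, 1 to 17 and 5 to 15. The interaction by titles had 1 lower call in the window (0) and 9 over all TEs (5). AT5TE40480 (62 counts) and AT5TE49345 (71 counts), called there in the quadruple mutant, had reads in that set only in replicate 3. With TE counts as library sizes, *h1.1 h1.2* against Col-0 had 1 lower call (2), and 9 over all TEs (10). The quadruple mutant then had 8 higher calls against *cdca7a cdca7b* (5) and 1 against Col-0 (0), and 24 (17) and 4 (1) over all TEs. DESeq2, a minimum of 10 summed counts and a fit of only the libraries compared each gave 1 higher call in that last pair. Over all TEs they gave 4, 6 and 3. The log2 ratio of the summed window turned to 0.15 as a percent of TE counts for *h1.1 h1.2* against Col-0, to -0.0541 for the quadruple mutant against *h1.1 h1.2*, and to -0.0278 without AT5TE44595 for the quadruple mutant against Col-0.

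Leaving out each library in turn gave 2 to 4 lower calls for *cdca7a cdca7b* against Col-0, 8 to 12 higher and 0 to 1 lower for *h1.1 h1.2* against *cdca7a cdca7b*, and 3 to 6 higher and 1 to 2 lower for *h1.1 h1.2* against Col-0. For the quadruple mutant it gave 4 to 6 higher against *cdca7a cdca7b*, 0 to 1 higher against Col-0, and 0 to 2 higher and 1 to 4 lower against *h1.1 h1.2*. The interaction by titles had 4 to 6 higher and 0 to 1 lower calls, and that by table names 3 lower calls each time. The summed log2 ratios ran from -0.15 to 0.15 for *cdca7a cdca7b* against Col-0, -0.19 to 0.13 for *h1.1 h1.2* against *cdca7a cdca7b*, and -0.21 to 0.16 for *h1.1 h1.2* against Col-0. Those of the quadruple mutant ran from -0.00838 to 0.21 against *cdca7a cdca7b*, -0.0567 to 0.24 against Col-0 and -0.0224 to 0.28 against *h1.1 h1.2*. Deviations of same-numbered libraries from their set means had correlations of -0.19 to 0.23, 3 of 18 over 0.1. The main fit did not treat the numbers as pairs. Whether same-numbered seedlings were handled together is not given in the sources used here, and these correlations cannot show it. With the replicate block, AT5TE48715 lost its call for *h1.1 h1.2* against Col-0 (edgeR adjusted p = 0.0586). The causes of these changes were not tested.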
